A study of Mus musculus with 15 samples.

Results

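Malat1, Neat1, Miat, Meg3 and Kcnq1ot1 are long non-coding RNAs (lncRNAs) that stay in the nucleus after transcription. They were taken by mouse Ensembl identifier from a table of 65964 entries, and each of the 5 matched 1 entry. The table gave transcript abundance in mouse brain as TPM, a level scaled to transcript length and to a fixed library total, for 15 libraries in 5 groups of 3. The groups were APOE_H and APOE_L (treated with KA and APOE), KA_H and KA_L (treated with KA), and CTRL_L (labelled untreated). KA is kainic acid, an agonist of glutamate receptors that is used to induce seizures in rodents. All 15 libraries, the untreated ones included, carry the strain label C57BL/6 and the label of a KA-induced model of temporal lobe epilepsy (TLE). The labels define neither the letters L and H nor what was done to APOE, they give no age, and there was no untreated H group. Whether replicate libraries stem from different animals is not labelled either. The p-values therefore describe library-to-library spread, which may be technical.

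Malat1 is concentrated in nuclear speckles, bodies rich in splicing factors, and is among the most abundant RNAs of most mammalian cells. Neat1 is the scaffold of paraspeckles, bodies that assemble on the long form of this RNA with the proteins Sfpq and Nono, and its level changes with many kinds of cell stress. Miat, also called Gomafu, is best known from neurons, where it forms nuclear spots of its own. Meg3 is the maternally expressed lncRNA of the imprinted Dlk1-Dio3 domain and is abundant in neurons. Kcnq1ot1 is transcribed from the paternal allele within Kcnq1, on the opposite strand, and silences neighbouring genes of that domain on the same allele.

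Malat1 and Neat1 are neighbours on chromosome 19. Malat1 and the long form of Neat1 lack a conventional poly(A) tail, whereas the short form of Neat1 is polyadenylated. U-rich motifs and a genomically encoded A-rich tract fold into a triple helix at the 3′ end of Malat1 and of long Neat1. RNase P cuts just after the A-rich tract, which releases a tRNA-like RNA from the downstream side. The sequences below show part of this shared end, because it is the feature that joins the 2 most abundant members. They are the sense strand of GENCODE M21 transcripts (GRCm38), 5′ to 3′, with T for U. The first capitals mark the motif TTTTGCTTTT, which closes the longest stretch (16 bases, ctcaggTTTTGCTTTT) that the end of Neat1 shares with Malat1. The second capitals mark AAAAAGCAAAA, the last 11 bases of Neat1.
Malat1: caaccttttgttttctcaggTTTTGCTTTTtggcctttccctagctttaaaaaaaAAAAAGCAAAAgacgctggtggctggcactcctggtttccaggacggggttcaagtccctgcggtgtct
Neat1: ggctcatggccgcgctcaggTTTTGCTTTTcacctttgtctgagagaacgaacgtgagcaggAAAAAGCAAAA
The stretch of Malat1 covers bases 6626 to 6749 of the 6983-base transcript Malat1-201, with the U-rich motif at bases 6646 to 6655 and the A-rich motif at 6681 to 6691. The annotated transcript runs on for 292 bases after the A-rich motif, and the last 58 bases printed belong to that downstream side. The stretch of Neat1 covers bases 20699 to 20771 of Neat1-201, and here the annotated transcript ends with the A-rich motif at base 20771. On the sense strand of 141767 annotated transcripts, 4 (0.00282%) held the 2 motifs in this order within 60 bases of each other without overlap. They were Malat1-201, Neat1-201 and 2 transcripts of Retreg3, which encodes a membrane protein of the endoplasmic reticulum. A library made by selecting poly(A) tails and one made from all RNA would treat such ends differently. The labels name total RNA and a TruSeq kit but not the selection step.

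The brain label was checked against cell type markers before the members were read. All 18 microglia markers were at 1 TPM or more in every library, whereas none of 20 neuron markers was, and the neuron markers together summed to between 0.66 and 67.0 TPM. The labelled APOE condition was checked on Apoe itself, which was at 144.3, 6.49 and 12.4 TPM in APOE_H and at 0.69, 0.71 and 0 TPM in APOE_L. It was at 16636, 10438 and 8767 TPM in KA_H, at 3084, 3262 and 1970 TPM in KA_L and at 161, 889 and 555 TPM in CTRL_L. Markers of choroid plexus and ependyma differed sharply between the letters, with summed levels of 38381 to 58900 TPM in APOE_H, 126 to 297 TPM in APOE_L, 33178 to 41276 TPM in KA_H, 57.8 to 1281 TPM in KA_L and 139 to 38960 in CTRL_L. Of these markers, 8 of 9 tested rose in H against L averaged over KA and APOE, where 7.72% of all entries rose. That contrast leaves out CTRL_L, an L group in which 2 of 3 libraries were high. Folr1, Sostdc1, Aqp1 and Foxj1, named for this reason alone, reached 1 TPM in no APOE_L or KA_L library. They passed the filter for testing (1 TPM in 3 or more libraries) only with the H libraries, so their part of this count is no independent result. No pair of libraries held identical values, and TPM keeps no sequencing depth, so the reads behind each value are unknown.

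The 5 lncRNAs spanned a wide range of levels. On this per-length scale Malat1 was among the 29 most abundant entries in every library, and Neat1 ranked between place 1439 and place 7960. Kcnq1ot1 was near 1 TPM, and Meg3 and Miat were at or near 0. In bulk RNA a lower level can reflect fewer cells that make the RNA or less RNA in each cell, and these cannot be told apart. The tests took in entries that reached 1 TPM in 3 or more libraries, which kept 17505 entries and 3 of the 5 members. Meg3 and Miat did not pass.

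**Figure D1:**
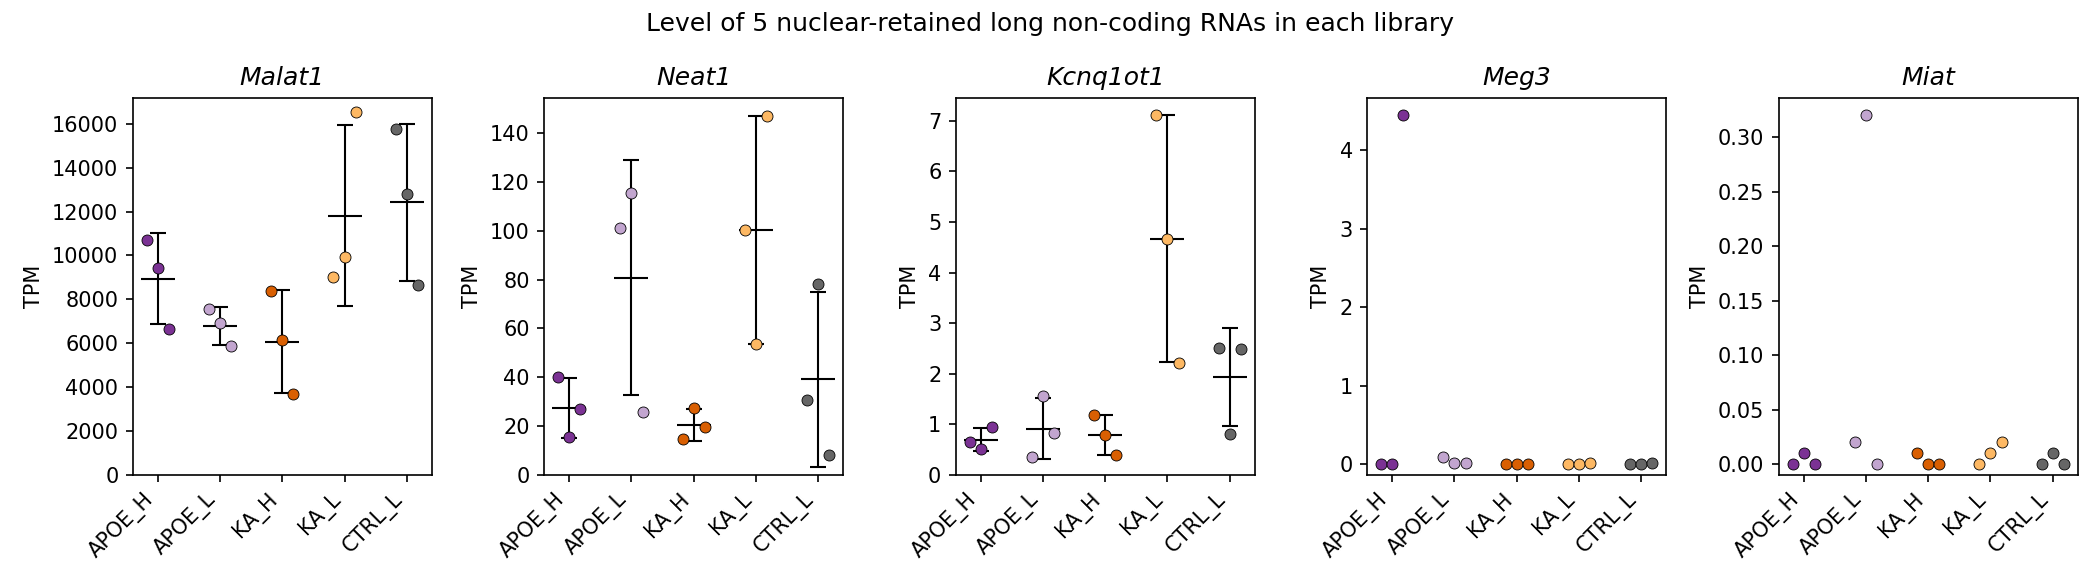
Level of each lncRNA in TPM (vertical axes, linear, one scale per gene) in the 15 libraries, with points for libraries and bars for the mean and SD of 3 libraries per group (Malat1, Neat1 and Kcnq1ot1 only), in the order APOE_H, APOE_L, KA_H, KA_L, CTRL_L. Malat1 lay between 3687 and 16540 TPM in all libraries, Neat1 and Kcnq1ot1 had their highest library in KA_L, and Meg3 and Miat each had 1 library above the rest.

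Malat1 was detected at a high level in every library. It was at 10722, 9439 and 6665 TPM in APOE_H and at 7565, 6942 and 5856 TPM in APOE_L. It was at 8374, 6141 and 3687 TPM in KA_H, at 9016, 9914 and 16540 TPM in KA_L and at 15776, 12823 and 8659 TPM in CTRL_L. The lowest library was a KA_H one and the highest a KA_L one, 4.49 times apart. Malat1 alone held 0.369% to 1.65% of the whole TPM total and ranked between place 2 and place 29 among all entries. Group means were 8942 ± 2074 TPM in APOE_H, 6787 ± 865 in APOE_L, 6067 ± 2345 in KA_H, 11824 ± 4109 in KA_L and 12419 ± 3576 in CTRL_L (SD, n = 3 each). From the highest mean to the lowest the order was CTRL_L, KA_L, APOE_H, APOE_L and KA_H, and each group overlapped the next one in that order. One annotated entry, Gm37376, lies across 453 bases of Malat1 on the opposite strand. It was at 161, 113 and 73.6 TPM in APOE_H and 64.2, 17.8 and 48.3 TPM in APOE_L, and at 94.9, 46.0 and 37.5 TPM in KA_H, 80.2, 23.9 and 10.6 in KA_L and 129, 16.2 and 39.0 in CTRL_L. The strand setting of the counting is not given in the sources used here, so reads of this entry and of Malat1 cannot be told apart.

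Neat1 varied more between libraries than Malat1 did, with a 17.95-fold range. It was at 39.9, 15.4 and 27.0 TPM in APOE_H and at 101, 115 and 25.7 TPM in APOE_L. It was at 14.5, 27.2 and 19.4 TPM in KA_H, at 100.2, 53.6 and 147 TPM in KA_L and at 30.6, 78.2 and 8.2 TPM in CTRL_L. All 6 H libraries were under 40 TPM, and 5 of the 6 L libraries treated with KA were above 50 TPM, the exception being APOE_L replicate 3. Group means were 27.4 ± 12.3 TPM in APOE_H, 80.7 ± 48.2 in APOE_L, 20.4 ± 6.38 in KA_H, 100.3 ± 46.8 in KA_L and 39.0 ± 35.8 in CTRL_L (SD, n = 3 each). The order of the means was KA_L, APOE_L, CTRL_L, APOE_H and KA_H, and again each group overlapped its neighbour. The table gave 1 value per gene, and GENCODE M21 lists 4 transcripts of Neat1 from 711 to 20771 bases, so the short and the long form cannot be told apart here.

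Kcnq1ot1, annotated as 1 unspliced antisense transcript of 93092 bases on chromosome 7, was low throughout. It was at 0.64, 0.51 and 0.94 TPM in APOE_H and at 0.35, 1.56 and 0.83 TPM in APOE_L. It was at 1.18, 0.78 and 0.39 TPM in KA_H, at 7.11, 4.67 and 2.22 TPM in KA_L and at 2.51, 0.81 and 2.48 TPM in CTRL_L. All 3 KA_L libraries were at 2 TPM or more, and 5 of the 7 libraries at 1 TPM or more were in KA_L or CTRL_L, so the gene passed the filter mainly through those groups. Group means were 0.697 ± 0.221 TPM in APOE_H, 0.913 ± 0.609 in APOE_L, 0.783 ± 0.395 in KA_H, 4.67 ± 2.45 in KA_L and 1.93 ± 0.973 in CTRL_L (SD, n = 3 each). The order was KA_L, CTRL_L, APOE_L, KA_H and APOE_H, with an overlap at each step. Kcnq1, the potassium channel gene that contains Kcnq1ot1 on the other strand, was listed at 0 in 14 libraries and at 0.02 TPM in APOE_H replicate 3.

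Meg3 was listed at 0 in 9 libraries. It stood at 4.44 TPM in APOE_H replicate 3 and at 0.09 TPM or less in the other 5 libraries with a value above 0. Miat was listed at 0 in 8 libraries and reached its highest level, 0.32 TPM, in APOE_L replicate 2. Its other 6 values above 0 were at most 0.02 TPM. Fitted without a filter, over 41677 entries, neither gene passed in any of the 8 comparisons with limma, and their lowest adjusted p was 0.482 for Miat and 0.491 for Meg3, both in APOE_H against APOE_L. Each of these values rests on 1 library.

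The groups were set against each other in 8 comparisons with limma on log2(TPM + 1), a scale that understates the change of low genes such as Kcnq1ot1, and p-values were adjusted by Benjamini-Hochberg over all 17505 entries. None of the 24 tests of a member (3 genes in 8 comparisons) passed at an adjusted p under 0.05. With limma, 5 of them had an unadjusted p under 0.05. Of these, 2 were in KA_H against KA_L, where 14.8% of all entries had one, and 1 each in H against L (26.3%), in APOE_L against KA_L (7.84%) and in the interaction (8.32%). There was none in APOE_H against APOE_L (21.9%), APOE_H against KA_H (8.63%), APOE against KA (8.23%) or KA_L against CTRL_L (11.1%).

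The difference between KA_H and KA_L was the clearest for Malat1. All 3 tested members were lower in every KA_H library than in every KA_L library, which was the case for 9.12% of all entries. Malat1 averaged 6067 TPM in KA_H and 11824 TPM in KA_L, a ratio of 0.513 and a log2 fold change of -0.99 (SE 0.29, 95% interval -1.61 to -0.37, limma unadjusted p = 0.00365, adjusted p = 0.110). Neat1 averaged 20.4 TPM in KA_H and 100.3 TPM in KA_L, a ratio of 0.203 and a log2 fold change of -2.17 (SE 0.92, limma unadjusted p = 0.0300, adjusted p = 0.273). Kcnq1ot1 averaged 0.783 TPM in KA_H and 4.67 TPM in KA_L, and its log2 fold change was -1.59 (SE 0.78, limma adjusted p = 0.359). None passed the adjusted threshold, which 1.49% of all entries did. With quantile normalization Malat1 did pass (log2 fold change -1.66, limma adjusted p = 0.0178). The median log2 fold change of all entries was 0.11.

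In the APOE condition the same contrast of letters gave other values. Malat1 averaged 8942 TPM in APOE_H and 6787 TPM in APOE_L, a log2 fold change of 0.38 (SE 0.29, limma adjusted p = 0.481). Neat1 averaged 27.4 TPM in APOE_H and 80.7 TPM in APOE_L, a log2 fold change of -1.36 (SE 0.92, limma adjusted p = 0.412), and the groups overlapped through APOE_L replicate 3. Kcnq1ot1 was at 0.697 TPM in APOE_H and 0.913 TPM in APOE_L, a log2 fold change of -0.13 (limma adjusted p = 0.951). No member passed or stood clear of overlap, against 6.15% and 29.8% of all entries.

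Averaged over KA and APOE, Neat1 was the member nearest to the threshold. It averaged 23.9 ± 9.55 TPM in H and 90.5 ± 43.8 TPM in L (SD, n = 6 each), a log2 fold change of -1.77 (SE 0.65, 95% interval -3.14 to -0.40, limma unadjusted p = 0.0145, adjusted p = 0.0942). Malat1 had a log2 fold change of -0.30 (limma adjusted p = 0.372) and Kcnq1ot1 one of -0.86 (limma adjusted p = 0.340). None of the 3 passed, whereas 10.2% of all entries did. With quantile normalization Kcnq1ot1 did pass (log2 fold change -1.79, limma adjusted p = 0.0487). Whether the contrast of letters differed between APOE and KA was tested as an interaction. For Malat1 this was 1.37 (SE 0.41, 95% interval 0.49 to 2.24, limma unadjusted p = 0.00429, adjusted p = 0.383), for Neat1 0.81 (adjusted p = 0.897) and for Kcnq1ot1 1.46 (adjusted p = 0.771). The interaction passed for 0.0457% of all entries and for no member, and these comparisons share libraries with the ones above.

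**Figure D2:**
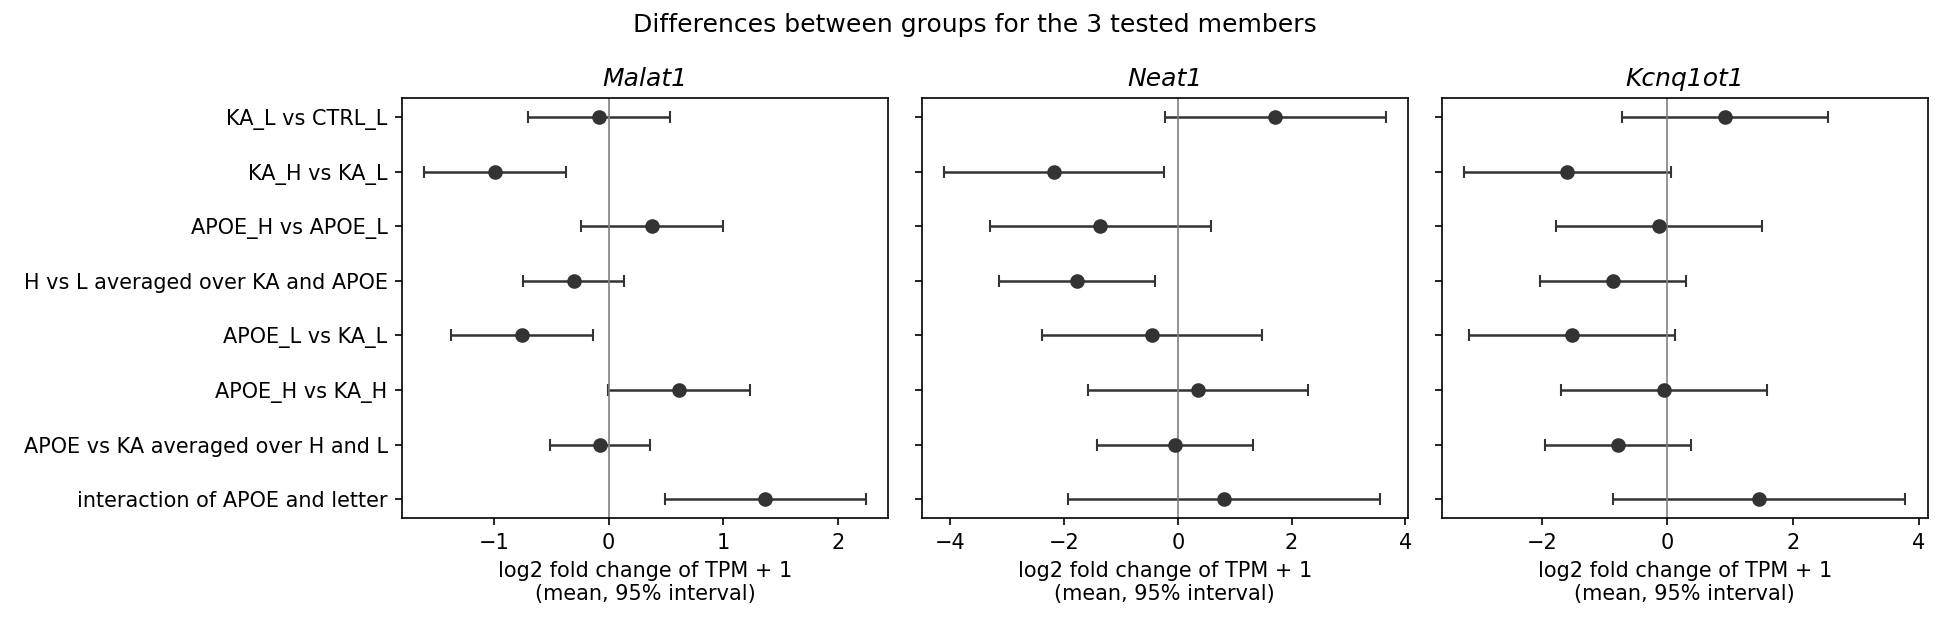
Log2 fold change of TPM + 1 with its 95% interval (horizontal axis) for Malat1, Neat1 and Kcnq1ot1 in the 8 comparisons (vertical axis), from the limma fit over 15 libraries. For Malat1 the interval lies below 0 in KA_H against KA_L (-1.61 to -0.37) and in APOE_L against KA_L, and above 0 for the interaction (0.49 to 2.24). For Neat1 it lies below 0 in KA_H against KA_L and in H against L.

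APOE and KA were compared at each letter. In APOE_L, Malat1 averaged 6787 TPM against 11824 TPM in KA_L, a ratio of 0.574 and a log2 fold change of -0.76 (SE 0.29, limma unadjusted p = 0.0195, adjusted p = 0.538). Every APOE_L library was below every KA_L library for Malat1 and for Kcnq1ot1, which was so for 5.52% of all entries. Kcnq1ot1 averaged 0.913 TPM in APOE_L and 4.67 TPM in KA_L, a log2 fold change of -1.52 (SE 0.78, limma adjusted p = 0.683). Neat1 overlapped, with 80.7 TPM in APOE_L and 100.3 TPM in KA_L (log2 fold change -0.46, limma adjusted p = 0.996). In APOE_H, Malat1 averaged 8942 TPM against 6067 TPM in KA_H, a log2 fold change of 0.61 (SE 0.29, limma unadjusted p = 0.0525, adjusted p = 0.589), with overlap. Neat1 at 27.4 TPM in APOE_H and 20.4 TPM in KA_H, and Kcnq1ot1 at 0.697 and 0.783 TPM in the same order, had log2 fold changes of 0.36 and -0.06. The members passed in neither comparison, and 0.0457% of all entries passed between APOE_L and KA_L and 0.531% between APOE_H and KA_H. Averaged over the letters, the log2 fold changes of APOE over KA were -0.07 for Malat1, -0.05 for Neat1 and -0.79 for Kcnq1ot1, with 95% intervals of -0.51 to 0.36, -1.42 to 1.32 and -1.95 to 0.38. No member passed there either, against 0.0171% of all entries.

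KA_L against CTRL_L, the only contrast with the untreated group, called no member and 0.571% of all entries. Malat1 averaged 11824 TPM in KA_L and 12419 TPM in CTRL_L, with a log2 fold change of -0.08 and a 95% interval of -0.70 to 0.54, and its sign turned with the scaling (0.17 with upper-quartile scaling and 0.11 with quantile normalization). Neat1 averaged 100.3 TPM in KA_L and 39.0 TPM in CTRL_L, a log2 fold change of 1.72 (SE 0.92, limma adjusted p = 0.524), and CTRL_L replicate 2 at 78.2 TPM lay within the KA_L range. Kcnq1ot1 averaged 4.67 TPM in KA_L and 1.93 TPM in CTRL_L, a log2 fold change of 0.91 (SE 0.78, limma adjusted p = 0.694).

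Several measures of the libraries also differed between the groups. Mitochondrially encoded genes held 4.47% ± 1.42 of the TPM total in APOE_H, 8.91% ± 1.43 in APOE_L, 9.33% ± 1.51 in KA_H, 4.77% ± 0.854 in KA_L and 7.75% ± 2.26 in CTRL_L (SD, n = 3 each). This share was lower in the letter group where Malat1 was higher, in APOE and in KA alike. By group means, CTRL_L did not follow this order. Its Malat1 mean of 12419 TPM was the highest of the groups, yet its mitochondrial share lay above those of KA_L and APOE_H. Library by library the order varied. Within CTRL_L, Malat1 at 15776, 12823 and 8659 TPM went with shares of 5.18%, 8.59% and 9.47%. Within KA_H, the library lowest in Malat1, at 3687 TPM, also had the lowest share, 7.92%. Assembled loci without a gene name held 2.83% ± 0.542 in APOE_H, 11.03% ± 0.414 in APOE_L, 5.46% ± 1.18 in KA_H, 11.8% ± 0.362 in KA_L and 7.84% ± 1.11 in CTRL_L, and they were lower in H, as Neat1 was. All entries annotated as lncRNA together held 2.55% ± 0.275 in APOE_H, 4.0% ± 0.163 in APOE_L, 2.92% ± 0.373 in KA_H, 4.59% ± 0.424 in KA_L and 3.89% ± 0.106 in CTRL_L. Summed microglia markers were at 42657 ± 8144 TPM in APOE_H, 29900 ± 180 in APOE_L, 40405 ± 3899 in KA_H, 21248 ± 5776 in KA_L and 32683 ± 21158 in CTRL_L. Entries at 1 TPM or above numbered 14026 ± 1337 in APOE_H, 10672 ± 540 in APOE_L, 13461 ± 236 in KA_H, 10843 ± 1114 in KA_L and 10890 ± 256 in CTRL_L. Markers of blood and vessels were uneven as well. The neutrophil genes S100a8 and S100a9 rose in KA_H against KA_L, where both were listed at 0 in all KA_L libraries (limma adjusted p = 0.0256 and 0.0296). Both were listed at 0 in every L library and passed the filter on low values through H libraries alone, so these calls are no independent result. Ly6g, another neutrophil gene of that list, was listed at 0 in every library. In KA_H against KA_L the median log2 fold change was 5.38 over 4 red blood cell markers and 2.87 over 8 endothelial markers. None of either list was called. Flt1, Cldn5, Kdr and Slco1a4 of the endothelial list and Hbb-bt of the red blood cell list are named for this reason alone. They passed the filter on low values only with the H libraries, so the medians that include them are no independent result. The summed endothelial markers overlapped, at 257, 121 and 916 TPM in KA_H and 270, 40.6 and 59.1 TPM in KA_L. The highest red blood cell sum of all libraries was 7386 TPM in APOE_L replicate 2. The part of these measures and of the choroid plexus markers in the values of the lncRNAs was not tested. With the mitochondrial genes left out and each library rescaled, and with the assembled loci left out in the same way, no member passed in any of the 8 comparisons.

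**Figure D3:**
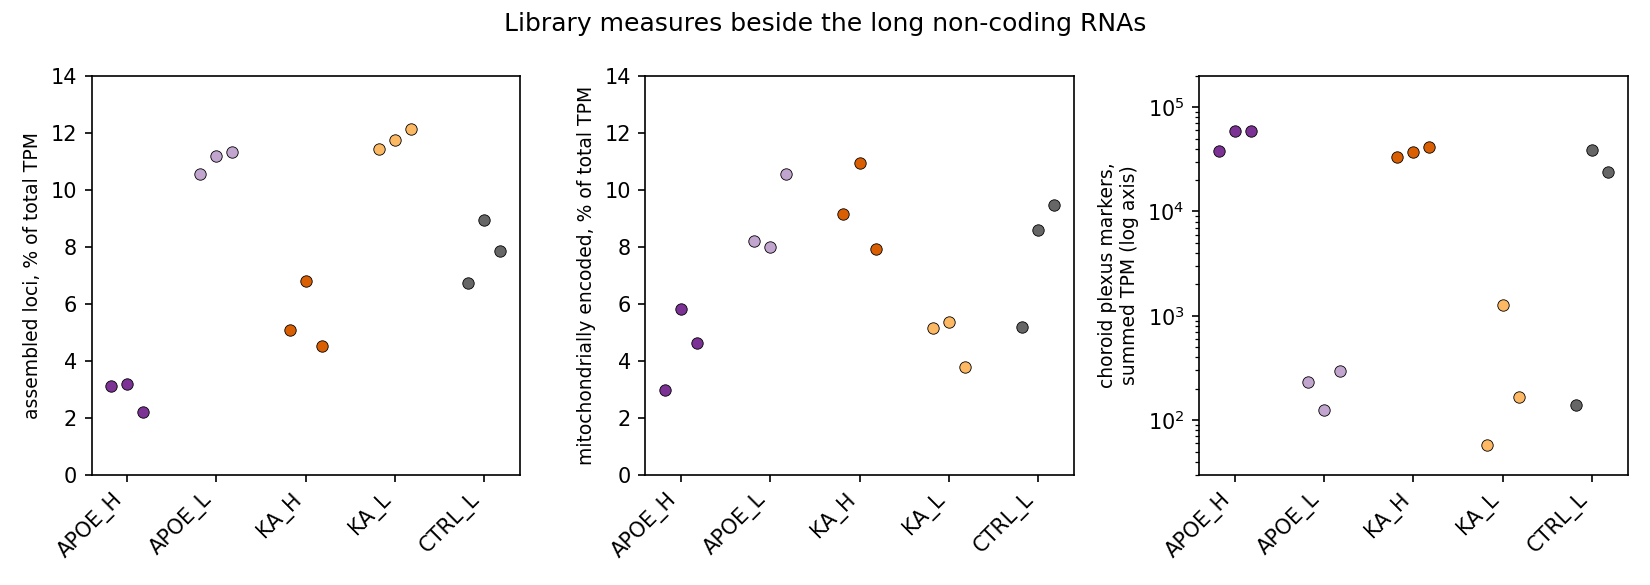
Library measures (vertical axes) in the 15 libraries by group, with points for libraries: shares of the TPM total in percent, and the summed TPM of choroid plexus and ependyma markers on a log axis. The share of assembled loci is 2.83% in APOE_H and 5.46% in KA_H on average, against 11.03% in APOE_L and 11.8% in KA_L.

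The proteins that work with Malat1 and Neat1 were then read from lists, mainly for H against L averaged over KA and APOE, where 7.72% of all entries passed as higher and 2.46% as lower with a median log2 fold change of 0.32. Of 20 paraspeckle proteins, all tested, 1 rose, none fell and the median was 0.11. Smarca4, named for this reason alone, passed the filter on low values only with the H libraries, so its part of this median is no independent result. The one that rose was Nudt21, a subunit of cleavage factor I that directs the choice of poly(A) site and is also on the list of 3′ end factors. It was at 14.9, 41.1 and 19.2 TPM in APOE_H, 0.50, 0.44 and 1.89 in APOE_L, 25.1, 13.1 and 19.3 in KA_H and 1.29, 1.33 and 0.94 in KA_L, with no overlap between H and L (log2 fold change 3.43, SE 0.84, limma adjusted p = 0.0163). In CTRL_L it was at 0.03, 26.6 and 1.21 TPM. Sfpq and Nono, the core pair of the paraspeckle, were chosen after their values were seen. Sfpq was at 14.9, 91.7 and 17.7 TPM in APOE_H, 49.9, 150.3 and 73.0 in APOE_L, 47.0, 56.6 and 35.8 in KA_H and 102, 334 and 463 in KA_L (log2 fold change -1.94, SE 0.75, limma adjusted p = 0.110). Sfpq was at 35.3, 176 and 5.7 TPM in CTRL_L, also an L group, which held its lowest library of all. Nono had a log2 fold change of 0.41 (SE 0.57, limma adjusted p = 0.691). Neither passed.

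Of 22 nuclear speckle proteins, the bodies in which Malat1 resides, none rose, 1 fell and the median log2 fold change was -0.08. This was Clk1, a kinase that phosphorylates SR splicing factors. It was at 243, 98.3 and 106 TPM in APOE_H, 556, 601 and 411 in APOE_L, 417, 254 and 183 in KA_H and 549, 262 and 349 in KA_L. APOE_H and APOE_L did not overlap whereas KA_H and KA_L did, and the averaged log2 fold change was -1.18 (SE 0.34, limma adjusted p = 0.0377). The call did not hold with quantile normalization, without a filter, or in 8 of the 15 fits that each left out 1 library. Of 14 tested factors of 3′ end processing, 2 rose, none fell and the median was 1.04. Besides Nudt21 this was Rpp14, a subunit of RNase P, the enzyme that cuts after the A-rich motif shown above. Rpp14 was at 28.1, 29.9 and 36.1 TPM in APOE_H, listed at 0 in all 3 APOE_L libraries, at 50.8, 12.7 and 25.8 TPM in KA_H, and at 61.7, 6.9 and 0 TPM in KA_L, where KA_L replicate 1 was the highest of all; it was listed at 0 in all 3 CTRL_L libraries. Its averaged log2 fold change was 3.38 (SE 0.90, limma adjusted p = 0.0248), and it was not called when APOE_H replicate 3, KA_H replicate 1, KA_H replicate 3 or KA_L replicate 3 was left out. Among L libraries Rpp14 reached 1 TPM only in KA_L replicates 1 and 2. It therefore met the filter of 3 libraries only with H, and its call is no independent result. Rpp38 and Pop1 of the same list, named for this reason alone, also met the filter only with H. The count and the median of the 3′ end factors, which include these genes, are therefore no independent result either. In KA_H against KA_L alone, where the 3 lncRNAs stood clear of overlap, none of the members of these 3 lists passed.

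**Figure D4:**
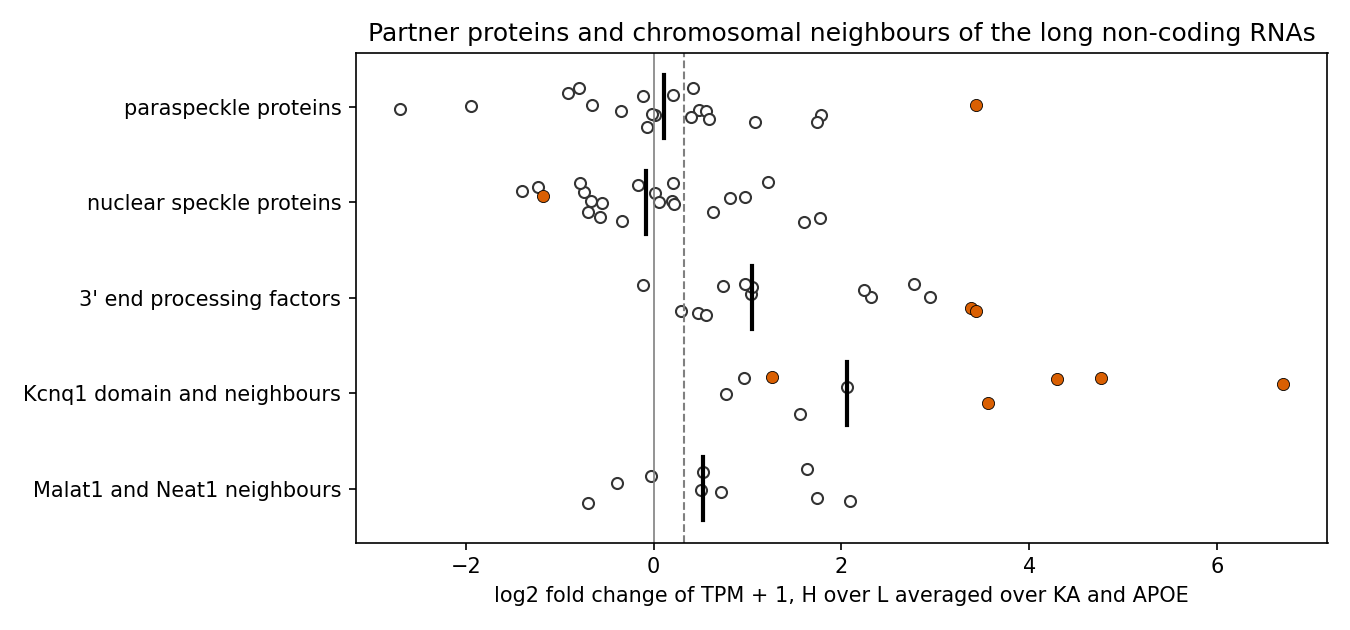
Log2 fold change of TPM + 1 for H over L, averaged over KA and APOE (horizontal axis), for each tested gene of the lists of partner proteins and chromosomal neighbours (rows), with filled points for genes past a limma adjusted p of 0.05, thick ticks for list medians and a dashed line for the median of all entries (0.32). All 9 tested genes of the Kcnq1 domain and its neighbours lie above 0, while paraspeckle and speckle proteins lie on both sides of 0. In the Kcnq1 list, Igf2, Ins2, Osbpl5 and Ascl2 passed the filter on low values only with the H libraries. The same holds for Rpp14, Rpp38 and Pop1 of the 3′ end factors and Smarca4 of the paraspeckle proteins. Ltbp3 and Capn1 of the Malat1 and Neat1 neighbours passed it only with H libraries as well.

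Kcnq1ot1 and Meg3 lie in imprinted domains, whose other genes were read next. For Kcnq1ot1 the list held the Kcnq1 domain, in which it silences genes, together with neighbours such as Igf2 and Ins2, which belong to the adjoining H19/Igf2 domain under another control region. Of its 14 genes 9 were tested, and 5 rose and none fell in H relative to L, with a median log2 fold change of 2.06 and a positive value for all 9. Igf2, Ins2, Osbpl5 and Ascl2, the last 2 named for this reason alone, reached 1 TPM in no APOE_L or KA_L library. They passed the filter on low values only with the H libraries. Their positive values, and the count and median that include them, are therefore no independent result. Igf2, a fetal growth factor that is also made by choroid plexus, was at 278, 140.5 and 279 TPM in APOE_H, 0, 0.08 and 0 in APOE_L, 90.2, 38.5 and 33.8 in KA_H, and listed at 0 in all 3 KA_L libraries (log2 fold change 6.70, SE 0.93, limma adjusted p = 0.000442). It was at 0, 102 and 14.5 TPM in CTRL_L, and it reached 1 TPM in H and CTRL_L libraries alone, so it passed the filter on low values through them. Cdkn1c, a cell cycle inhibitor that Kcnq1ot1 silences in cis, was at 179, 77.7 and 174 TPM in APOE_H, 0.10, 0.10 and 32.5 in APOE_L, 86.7, 12.5 and 17.6 in KA_H and 0, 2.36 and 0 in KA_L (log2 fold change 4.76, SE 1.15, limma adjusted p = 0.0149). In CTRL_L it was at 0, 62.3 and 80.2 TPM. Ins2, an insulin gene, rose with a log2 fold change of 4.30 (SE 0.86, limma adjusted p = 0.00533). It was at 43.4, 31.3 and 0.49 TPM in APOE_H and 0.35, 0.15 and 0 in APOE_L. In KA_H it was at 64.8, 30.85 and 44.2 TPM, in KA_L at 0.15, 0.84 and 0.07, and in CTRL_L at 0.38, 0.02 and 1.87. Ins2 passed the filter on low values only with the H libraries, so its call is no independent result. The other genes that rose, Cd81 and Tssc4 (log2 fold changes 1.26 and 3.56), were named after their values were seen. Tssc4 missed the threshold in 9 of the 15 fits that left out 1 library. Without APOE_H replicate 1, 3 genes of this list rose in place of 5, and without a filter 2 did. The H libraries, and the CTRL_L libraries with Igf2 and Cdkn1c, are also those with high choroid plexus markers (Ttr at 34654 ± 8983 TPM in APOE_H, 109 ± 97.0 in APOE_L, 25271 ± 2468 in KA_H and 309 ± 411 in KA_L), and the part of that tissue in these values was not tested. In KA_H against KA_L alone, Igf2 and Ins2 rose (log2 fold changes 5.64 and 5.12, limma adjusted p = 0.0449 and 0.0463), but each missed the threshold in 15 of the alternative fits, with adjusted p up to 0.141 and 0.139. In APOE_H against APOE_L Igf2 rose (log2 fold change 7.76, limma adjusted p = 0.00448) in every fit.

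In and beside the Dlk1-Dio3 domain, home of Meg3, 2 of 9 listed genes were tested and neither passed. They were Wdr25 and Ppp2r5c, named after their values were seen, which reached 79.9 and 186 TPM in single KA_L libraries, far above Meg3. Rian, another maternal lncRNA of the domain, was at 0.24 TPM or less in every library. Meg3 at 4.44 TPM in APOE_H replicate 3 was not matched there by Rian, which was listed at 0. Around Malat1 and Neat1, 9 of 12 listed neighbouring genes were tested, and none rose or fell (median log2 fold change 0.53). Ltbp3 and Capn1, named for this reason alone, passed the filter on low values only with the H libraries. Their part of this median is no independent result.

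The entries most like each member across the 15 libraries were ranked by Pearson correlation of log2(TPM + 1) among 10966 entries with a symbol and a mean of at least 5 TPM. The points share libraries, groups and the TPM total, so the values are a description. For Malat1 they were Mcl1, which protects from apoptosis (r = 0.886), the fructose transporter Slc2a5 (r = 0.852) and Ivns1abp (r = 0.833). Mcl1 averaged 89.0 TPM in APOE_H, 67.0 in APOE_L, 39.8 in KA_H, 132 in KA_L and 108 in CTRL_L, with KA_H lowest, as for Malat1. For Neat1 they were Ppp4r3b, a regulatory subunit of protein phosphatase 4 (r = 0.895), AC125544.1 (r = 0.889) and Gm11027 (r = 0.882). Ppp4r3b averaged 27.6 TPM in APOE_H, 66.5 in APOE_L, 16.2 in KA_H, 124 in KA_L and 62.9 in CTRL_L. For Kcnq1ot1 they included Zfp607b (r = 0.833) and AC154200.1 (r = 0.829), both with their highest mean in KA_L. Those means rest mainly on KA_L replicate 1, which was also the highest library of Kcnq1ot1. In KA_L, Zfp607b was at 418.5, 62.8 and 35.6 TPM and AC154200.1 at 215, 22.4 and 0.18 TPM. For Meg3 they were Rrh, Pbk and Ctnna3 (r = 0.782, 0.728 and 0.713), and for Miat Gm29502, Gm25394 and Gm24289 (r = 0.995 each), and these rest on APOE_H replicate 3 and APOE_L replicate 2.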

How the data were processed

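The values deposited by the authors were TPM, with 1 column per library and every library summing to between 999999.6 and 1000000.9. Per the submitters' processing notes, reads were aligned with STAR and the build was GRCh38. This is a human build name, whereas 55416 of the entries were mouse Ensembl identifiers, so no coordinates are given. The quantification tool, the annotation and the strand setting are not given in the sources used here. Symbols, biotypes and sequences came from GENCODE M21.

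For entries that reached 1 TPM in 3 or more libraries, log2(TPM + 1) was fitted in limma 3.58.1 (R 4.3.3, 1 mean per group, eBayes with a trend, 10 residual degrees of freedom), with Benjamini-Hochberg adjustment over 17505 entries per comparison and a threshold of 0.05. The procedure was tested on simulated data. A TPM of exactly 0 may stem from a failed estimate and is described as listed at 0. TPM keeps no depth, so no counting interval is given. The members, lists and tests were chosen with earlier results of these data known. The 5 members are named in every comparison, and of each list at most 3 called genes with the largest change and a mean of at least 5 TPM in a group; exceptions are marked. Alternatives were another pseudocount (0.1), no filter, a filter of 5 TPM, upper-quartile scaling, quantile normalization, leaving out assembled loci, mitochondrial genes or the members from the total, only the compared libraries, a replicate block, and leaving out each library. One entry of the ranking by likeness is not reported here.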

Additional observations from a re-analysis of the deposited data

How the results depend on the processing

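Of the members' alternative values, 573 kept the direction and the side of the threshold of the reported fit, 17 turned sign and 2 passed the threshold. Both that passed came with quantile normalization, which called 1 member in KA_H against KA_L (Malat1, log2 fold change -1.66, limma adjusted p = 0.0178) and 1 in H against L averaged over KA and APOE (Kcnq1ot1, -1.79, adjusted p = 0.0487). Over all alternatives the adjusted p of these values ran from 0.0178 to 0.489 and from 0.0487 to 0.518. The cause was not tested.

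All values that turned sign were small. For Malat1 in KA_L against CTRL_L they were 0.17 with upper-quartile scaling, 0.11 with quantile normalization and, leaving out 1 library, -0.35 to 0.11. Neat1 in APOE_H against KA_H was -0.0044 with quantile normalization. Leaving out 1 library gave Kcnq1ot1 in APOE_H against APOE_L -0.36 to 0.10, Neat1 in APOE_L against KA_L -0.85 to 0.22 (positive without APOE_L replicate 3), Kcnq1ot1 in APOE_H against KA_H -0.22 to 0.10, and, for APOE against KA, Malat1 -0.23 to 0.064 and Neat1 -0.24 to 0.29. No library left out changed the call of a member. The filter of 5 TPM removed Kcnq1ot1, so it has no value there.

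The replicate numbers were not treated as pairs, since the labels name no pairing. Deviations from the group means correlated between -0.026 and 0.037 in 30 same-numbered pairs and between -0.046 and 0.022 in 60 others, and 10 of 15 libraries were on average closest to their own number, which is a hint from the data and not from the labels. With the replicate block, Malat1 in KA_H against KA_L had an adjusted p of 0.0947 and no member's call changed.

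The number of entries called moved more. It was 100 for KA_L against CTRL_L (37 to 232 leaving out 1 library, 50 without a filter, 62 with upper-quartile scaling and 0 with only those libraries) and 260 for KA_H against KA_L (38 to 375, 100, 393 and 3). It was 1076 for APOE_H against APOE_L (429 to 1280, and 538 without a filter) and 1782 for H against L (1187 to 1924, and 1048). For APOE_L against KA_L it was 8 (3 to 68, 13 without a filter, 4 with the block and 1 with only those libraries), and for APOE_H against KA_H 93 (50 to 120, with 4, 61 and 0 in the same order, 43 with the 5 TPM filter and 25 with quantile normalization). For APOE against KA it was 3 (2 to 16, and otherwise 2 to 9) and for the interaction 8 (0 to 22, and otherwise 0 to 24). Quantile normalization took the median of all entries in H against L to -0.14 from the reported fit's 0.32, and the split to 1156 higher and 850 lower, against 1352 and 430. It gave 568 and 419 for APOE_H against APOE_L, against 822 and 254, and 10 and 15 for APOE_H against KA_H, against 63 and 30, where upper-quartile scaling gave 52 and 46. With upper-quartile scaling KA_L against CTRL_L split 26 and 36, against 30 and 70. For APOE against KA the split was 2 and 1, against 2 and 4 with upper-quartile scaling and 2 and 7 with quantile normalization.

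Depth is unknown, so no limit can be put on Meg3, Miat or any gene listed at 0.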

Other observations

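Other lncRNAs give a setting for the 5 members. Gas5, a spliced host of small nucleolar RNAs that leaves the nucleus, was at 402, 442 and 598 TPM in APOE_H, 1375, 1193 and 1284 in APOE_L, 504, 822 and 707 in KA_H and 908, 1215 and 1014 in KA_L. No H library reached the lowest KA_L or APOE_L library, and Gas5 fell in H against L (log2 fold change -1.04, SE 0.22, limma adjusted p = 0.00780), a call that held under every alternative run. In CTRL_L, also an L group, it was at 511, 550 and 688 TPM, below all 6 other L libraries. Of the 16 tested RNAs on the list of snoRNA hosts and spliced lncRNAs, 1 was called higher and 1 lower, with a median log2 fold change of -0.44. The higher one was Snhg18, named after its values were seen, at 7.0, 1.3 and 0.49 TPM in APOE_H and 3.66, 2.74 and 2.42 in KA_H, and listed at 0 in all 9 L libraries. It passed the filter on low values through the H libraries alone, so its call is no independent result, and it was not called without a filter or with quantile normalization.

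Of 10 tested RNAs among other nuclear or chromatin-associated lncRNAs, 1 rose and none fell, with a median log2 fold change of -0.78. It was 2900097C17Rik, at 20.6, 17.2 and 23.2 TPM in APOE_H, 0.01, 0.03 and 1.41 in APOE_L, 11.6, 3.94 and 8.32 in KA_H and 1.32, 1.99 and 0.73 in KA_L (log2 fold change 2.91, SE 0.73, limma adjusted p = 0.0174). With quantile normalization it missed the threshold (adjusted p = 0.0650). Xist, the nuclear RNA of the inactive X chromosome, was named after its values were seen and was listed at 0 in 13 of 15 libraries, with a highest level of 0.85 TPM in CTRL_L replicate 3.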
